A study of Mus musculus with 4 samples.

Results

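The wide peaks were the accessible regions of 3000 bp or more in a single-cell ATAC-Seq table of old long-term hematopoietic stem cells (LT-HSCs), and 2203 of the 93513 peaks of that table (2.36%) met this width. Width was taken as peak end minus peak start, and no count or gene name entered the choice. The peaks had been called on the same libraries that were counted, so width and counts are not independent measures. The median wide peak spanned 3691 bp, 385 spanned at least 5000 bp, 37 at least 10000 bp, and the longest 44895 bp. Peaks of 2000 to 2999 bp (4690 peaks) served as the nearest comparison.

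The study asked how CLCA3A1high and CLCA3A1low LT-HSCs of old mice differ in chromatin accessibility, and CLCA3A1 is a surface protein by which the cells had been sorted with an antibody. Both groups came from C57BL/6JRj mice of 22 to 28 months, LT-HSCs being the rare marrow cells that sustain all blood lineages. Each group was 1 sample of 10000 sorted cells, to which 4 mice gave 2500 cells each, so there were no replicates and single animals cannot be told apart. Cell barcodes ended in 1 of 2 suffixes (barcode set 1 and barcode set 2), which no label ties to a group, so ratios between the sets describe the sets alone, carry no group direction and have no p-value.

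The table held 1454 cells (818 in set 1 and 636 in set 2, with 0 barcodes in common) and 22871046 counts. A median cell had 12995.5 counts, with a range of 224 to 136173. Of the entries above 0, 88.7% were even numbers because a fragment usually brings a pair of cut sites, so all intervals below cover counting error only and are too narrow. The cell label was checked at gene starts. A peak covered a start of 47 of 50 stem cell identity genes, with the exceptions Hoxb3, Ly6a and Ndn. The counts were 6 of 20 lymphoid, 11 of 20 myeloid, 3 of 15 erythroid and 5 of 12 genes of other tissues. They were 10 of 12 for megakaryocyte, 9 of 12 for endothelial and stromal and 50 of 50 for housekeeping genes. Over all protein-coding genes the share was 66.2%, which the megakaryocyte (83.3%) and endothelial and stromal (75%) lists also exceeded. A high share was thus not particular to stem cell identity genes. The starts of Klf1, Gata1, Mpo, Elane, Il7r and Cd3e, which define erythroid, myeloid and lymphoid cells, lay in no peak. A start of other genes of these lists did lie in a peak, as for Gata3 (a count in 26.0% of cells), Car2 (18.1%), Cebpa (15%), Tfrc (14.9%) and Prtn3 (12.6%). Further ones were Pax5 (9.01%), Epor (8.79%), Lef1 (8.48%), Ebf1 (6.57%), Irf8 (5.12%) and Csf3r (4.58%). The label was not settled by open starts alone.

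Tn5 transposase inserts into DNA that nucleosomes leave free, which in most cells means promoters and enhancers. A typical accessible site is a single nucleosome-free stretch, and long accessible regions arise where promoter, gene body and neighboring enhancers are open side by side. Such regions are known at genes that define a cell type, at genes transcribed at a high rate in every cell, and at immediate early genes, which are transcribed quickly after a stimulus.

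Some sequences show what lay under the wide peaks. The first set holds the 250 bases before the RefSeq start (GRCm38.p6, 5′ to 3′ on the gene's strand) of the densest wide peak of the immediate early, the stem cell identity and the housekeeping list that had an entry overlapping no annotated untranslated or coding base. RefSeq promoters were matched for 17 of 19, 21 of 26 and 16 of 22 genes of these lists. Capitals mark GGGCGG on either strand, the core of the GC box bound by SP family factors.
Jun promoter, chr4:95052223-95052472, minus strand: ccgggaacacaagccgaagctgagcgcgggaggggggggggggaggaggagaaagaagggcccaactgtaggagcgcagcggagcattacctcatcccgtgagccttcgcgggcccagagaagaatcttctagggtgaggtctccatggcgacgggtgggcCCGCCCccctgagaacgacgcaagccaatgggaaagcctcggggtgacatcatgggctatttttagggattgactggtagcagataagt
Ctnnal1 promoter, chr4:56865212-56865461, minus strand: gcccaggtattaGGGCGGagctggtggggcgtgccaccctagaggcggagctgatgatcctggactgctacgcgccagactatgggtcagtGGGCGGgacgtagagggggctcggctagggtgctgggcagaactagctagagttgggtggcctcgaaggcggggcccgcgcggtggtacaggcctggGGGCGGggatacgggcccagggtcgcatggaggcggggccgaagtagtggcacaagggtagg
Cfl1 promoter, chr19:5490205-5490454, plus strand: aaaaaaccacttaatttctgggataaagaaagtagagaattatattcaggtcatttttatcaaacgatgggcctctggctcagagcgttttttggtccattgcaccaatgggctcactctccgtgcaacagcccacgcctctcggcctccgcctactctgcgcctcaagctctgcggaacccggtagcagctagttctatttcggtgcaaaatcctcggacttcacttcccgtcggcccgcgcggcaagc
The word occurred 3 times before Ctnnal1, 1 time before Jun and 0 times before Cfl1 in these windows.

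The second set holds 300 bases each of a pair of wide peaks with repeated words. The wide peak with the highest ratio of set 1 over set 2 lay at Peg3 and Usp29, and the window shown is the 300 bases of it, within an intron of Peg3, that hold the most copies of AAGATGGC, a core of the YY1 recognition sequence. The longest wide peak without a protein-coding start lay near the proximal end of chromosome 17, in no annotated gene, and 300 bases around its center are shown with CACAGTG on either strand in capitals. Both words were chosen after these sequences had been seen.
Peg3 wide peak, chr7:6727672-6727971, plus strand: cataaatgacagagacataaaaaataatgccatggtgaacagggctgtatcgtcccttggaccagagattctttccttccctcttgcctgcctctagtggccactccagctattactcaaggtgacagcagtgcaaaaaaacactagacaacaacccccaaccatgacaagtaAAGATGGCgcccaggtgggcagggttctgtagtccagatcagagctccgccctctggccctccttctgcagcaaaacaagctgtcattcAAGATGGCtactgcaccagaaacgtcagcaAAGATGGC
Chromosome 17 wide peak, chr17:3015215-3015514, plus strand: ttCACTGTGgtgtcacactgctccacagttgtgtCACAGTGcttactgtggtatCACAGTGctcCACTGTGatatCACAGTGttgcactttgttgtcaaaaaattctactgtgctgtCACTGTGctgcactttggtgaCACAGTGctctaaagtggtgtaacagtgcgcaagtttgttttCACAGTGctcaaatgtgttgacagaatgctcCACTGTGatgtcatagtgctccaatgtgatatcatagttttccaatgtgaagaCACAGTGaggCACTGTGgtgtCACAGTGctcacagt
Over its full length the Peg3 wide peak held 11 copies of AAGATGGC, all on the plus strand and between 830 and 3118 bp downstream of the RefSeq start. That was 3.20 per kb, against 0.0602 per kb over all wide peaks and 0.0602 per kb over all peaks, and no other wide peak had as many per kb. The chromosome 17 wide peak held 601 copies of CACAGTG (35.3 per kb, against 0.487 per kb over all wide peaks), and 52.1% of its bases were marked as repeats in the genome file.

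Wide peaks held a larger share of the counts than of the bases, but were not the densest class. They took 14.3% of all counts (95% Clopper-Pearson interval 14.306 to 14.334%) with 12.3% of all peak bases. The density of a peak was expressed as CPM per kb, where CPM is counts per 1000000 counts of the table or barcode set, since a longer peak collects more counts at equal density. The median density was 13.7 in wide peaks (interquartile range 9.34 to 19.2), 14.6 in peaks of 2000 to 2999 bp, 13.1 in peaks of 1000 to under 2000 bp, 8.94 in peaks of 500 to under 1000 bp and 5.07 in shorter peaks. Median density thus did not climb past the 2000 bp class, and within the wide peaks width and density had a Spearman's rho of -0.05 over 2203 peaks, which share libraries.

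The share of cells with a count grew at every step of width, as did the share of peaks with a start. To compare cells, each was thinned to 4899 counts, which 749 cells of set 1 and 560 of set 2 reached. At that depth a median wide peak had a count in 17.9% of cells (interquartile range 12.2 to 26.1%), and without thinning in 29.3% of cells. Peaks of 2000 to 2999 bp had a count in 12.0% of cells, and a median peak of the whole table in 1.53%. Of 46 peaks with a count in at least 50% of cells, 38 were wide, and of 751 peaks with a count in at least 30% of cells, 362 were wide. A longer target collects a count in more cells at equal density, so this share is not a density.

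**Figure D1:**
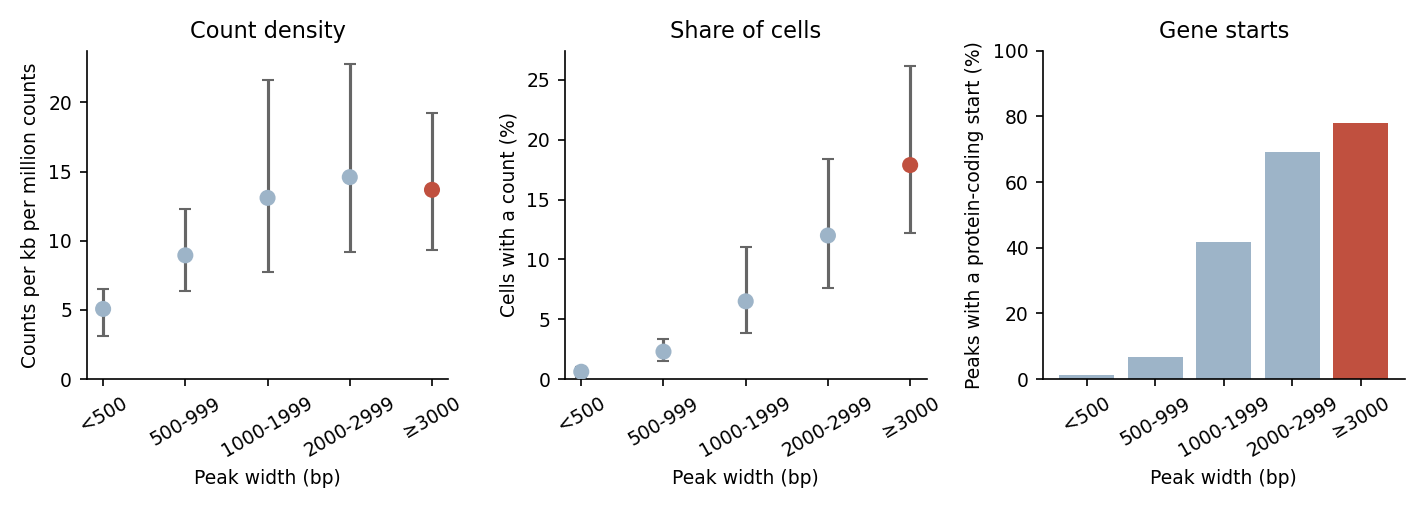
Median count density (left; CPM per kb), median share of 1309 cells with a count at 4899 counts per cell (middle; %) and share of peaks holding a protein-coding start (right; %) by peak width in bp, with interquartile ranges as bars and wide peaks in red. Density levels off from 1000 bp on, while the share of cells reaches 17.9% and the share with a start 77.9% in wide peaks.

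Most wide peaks were promoter regions. A start of a protein-coding transcript (GENCODE M21) lay in 1717 of 2203 wide peaks (77.9%), against 69.3% of peaks of 2000 to 2999 bp and 15.6% of all peaks. A single gene started in 1508 wide peaks, a pair of genes in 191 and 3 or more genes in 18. In all, 1896 of 21842 protein-coding gene symbols (8.68%) started in a wide peak. Per length, however, wide peaks held 209 gene starts per Mb, against 324 per Mb in peaks of 2000 to 2999 bp and 210 per Mb over all peaks.

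Measured from the outermost annotated start, the wide peaks reached farther into the gene than upstream of it. Peak length around starts farther inside a gene counts as downstream here, which by construction favors this direction. In 1251 wide peaks with 1 gene whose outermost annotated start lay inside, a median of 2569 bp lay downstream of the start (interquartile range 1986 to 3252 bp) and 1203 bp upstream (755 to 1817 bp). The downstream side was the longer one in 999 of them (79.9%). That share was 77.9% in peaks of 2000 to 2999 bp and 79.2% in peaks of 1000 to under 2000 bp, so the lean into the gene was there in each width class.

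**Figure D2:**
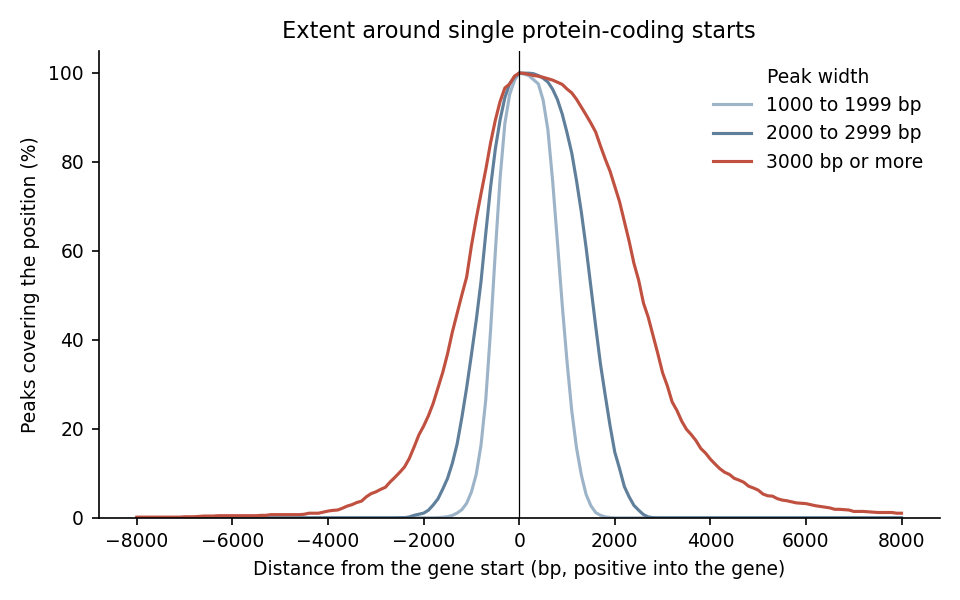
Share of peaks (%) that cover each position around the gene start (distance in bp, positive into the gene), for peaks with a single protein-coding gene whose outermost start lies inside, in 3 width classes; the value at 0 is 100% by construction. At 2000 bp into the gene 74.5% of wide peaks were still open, against 20.6% at 2000 bp upstream.

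The base composition of wide peaks resembled that of the next shorter class. The median GC content was 54.8% in both, against 49.4% over all peaks, and the median ratio of observed over expected CpG was 0.513 in wide peaks and 0.561 in peaks of 2000 to 2999 bp, against 0.242 over all peaks. Words of transcription factors were searched on both strands. GGGCGG occurred 1.59 times per kb in wide peaks, against 1.04 over all peaks and 1.82 in peaks of 2000 to 2999 bp. It was found in 69.9% of 2165 RefSeq promoters that lay whole in a wide peak, in 72.1% of those in peaks of 2000 to 2999 bp and in 35.7% of all 32851 promoters.

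Words of blood cell factors, and the CTCF consensus, were sparser in wide peaks than over all peaks. Peaks of 2000 to 2999 bp had similar values, at 0.0936 (PU.1), 0.200 (RUNX), 0.167 (AP-1), 0.101 (GATA) and 0.0383 (CTCF) times per kb. There the PU.1, RUNX and GATA words were slightly sparser than in wide peaks, and the AP-1 word and CTCF consensus slightly denser. The PU.1 word GAGGAAGT occurred 0.0940 times per kb in wide peaks and 0.148 over all peaks, and the RUNX word TGTGGTT 0.202 and 0.294 times. The AP-1 word TGAGTCA gave 0.165 and 0.230 per kb, and the GATA word AGATAAG 0.105 and 0.131 per kb. The TEAD word CATTCC was nearly even, at 0.506 and 0.524 per kb. The CTCF consensus occurred 0.0344 times per kb in wide peaks, 0.0739 over all peaks and 0.157 in peaks under 500 bp. A match is a run of letters and no proof of a bound site.

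Immediate early genes were the list that wide peaks covered most fully. A start of 19 of 20 immediate early genes lay in a wide peak (Btg1 was the exception), against 8.68% of all protein-coding genes. Stem cell identity genes followed with 26 of 50 and housekeeping genes with 22 of 50. Of histone genes whose symbols begin with Hist and a digit, 19 of 67 started in a wide peak. Histone genes with other symbols were not in this list. The counts were 6 of 20 genes for chromatin and the DNA damage response, 16 of 85 ribosomal protein genes and 6 of 39 Hox genes. Lineage lists lay nearer the value of all genes, with 2 of 20 lymphoid, 3 of 20 myeloid, 2 of 12 megakaryocyte, 1 of 12 endothelial and stromal, 0 of 15 erythroid and 0 of 12 genes of other tissues. Of 20 Hippo and TAZ genes listed, 18 were found in the annotation by symbol. Among these Vgll4, a cofactor of TEAD factors, was the single one with a start in a wide peak. The peak at the start of Wwtr1, which encodes TAZ, was just under the limit at 2954 bp. Of the 18 genes found, 17 had a peak of any width at a start, and Ankrd1 was the exception. Cyr61 and Ctgf were the symbols not found. They were not searched under other names, so their starts could not be judged.

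**Figure D3:**
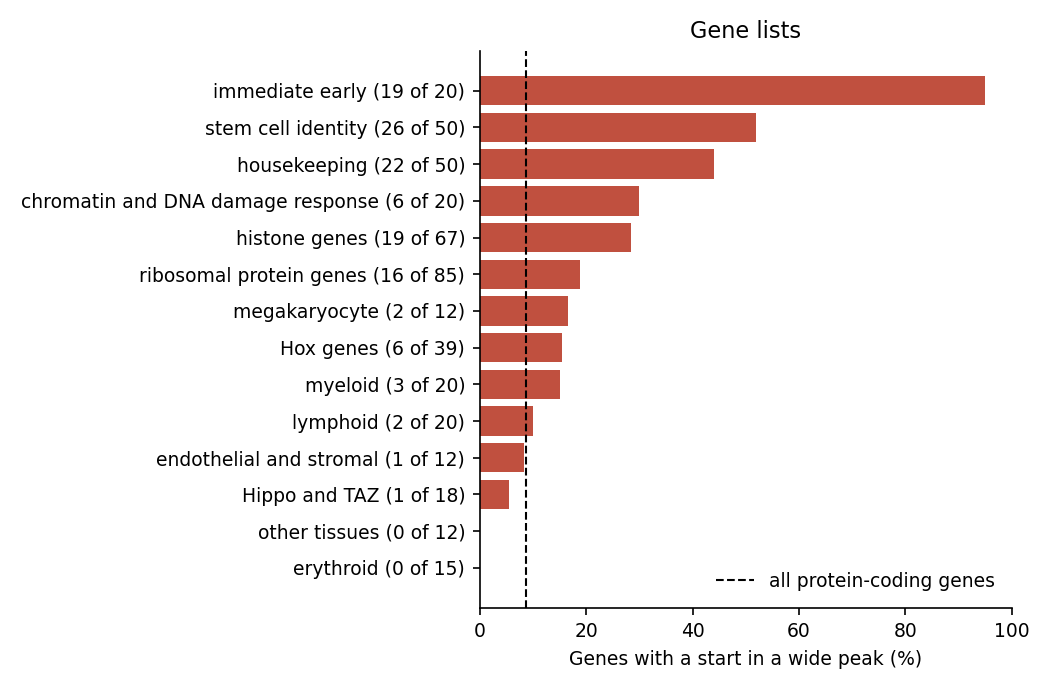
Share of the genes of each list (%) with a protein-coding start in a wide peak, with the number of genes in parentheses; the dashed line is the share of all protein-coding genes, 8.68%. Immediate early genes reach 19 of 20, stem cell identity genes 52.0% and housekeeping genes 44.0%.

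The stem cell identity and housekeeping wide peaks differed in shape. The 26 stem cell identity wide peaks had a median width of 5238 bp and a median density of 12.4 CPM per kb, against 3997 bp and 24.3 for the 22 housekeeping wide peaks. Over all wide peaks these medians were 3691 bp and 13.7. A count was present in a median of 21.7% of cells for stem cell identity and 31.8% for housekeeping wide peaks, with ranges of 9.01 to 56.9% and 17.0 to 46.0%. The ranges of density overlapped, from 8.0 to 31.4 for stem cell identity and from 10.1 to 41.2 for housekeeping. By these medians identity genes had the longer and thinner wide peaks, and housekeeping genes the shorter and denser ones.

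Among stem cell transcription factors, Lyl1, a basic helix-loop-helix factor, had the longest wide peak of its list. It spanned 12577 bp (chr8:84697151-84709727), also held the start of Trmt1, and had a count in 56.9% of cells. Its level was 231 CPM in set 1 and 261 in set 2. Etv6, an ETS family repressor needed for stem cell survival in marrow, followed with 11192 bp (chr6:134034347-134045538), 118 CPM in set 1 and 136 in set 2. Both were slightly higher in set 2, with log2 ratios of set 1 over set 2 of -0.18 and -0.20.

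Mecom, Gata2 and Mycn, transcription regulators of stem cell maintenance, had long wide peaks that were slightly higher in set 1. Mecom (chr3:30504153-30513166) had 95.9 CPM in set 1 and 81.6 in set 2. Gata2 (chr6:88196112-88204383) had 116 and 91.5 CPM, and Mycn (chr12:12936591-12943150) 110 and 87.6 CPM. Their log2 ratios were 0.23, 0.33 and 0.32, and the shares of cells 27.0, 28.0 and 31.2%.

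Meis1, Hlf, Lmo2, Myb and Mllt3, which also act in stem cell self-renewal, differed by less than 0.1 in log2 ratio between the sets (-0.05, 0.07, 0.07, 0.09 and -0.03). The same held for Foxo3, a forkhead factor of stem cell quiescence, which had the densest wide peak of the list at 31.4 CPM per kb and a count in 47.3% of cells. Its level was 166 CPM in set 1 and 169 in set 2. Of the 26 stem cell identity wide peaks, 7 were within 0.1 of 0 on this scale and 14 were higher in set 1, where 45.1% of all wide peaks were higher in set 1.

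The widest set differences of the list lay at Esam and Erg on one side and Gfi1 on the other. Esam, a cell adhesion molecule used as a stem cell surface marker, had 104 CPM in set 1 and 71.4 in set 2 (log2 ratio 0.54, 95% exact conditional interval of the count ratio 0.41 to 0.68). Erg, an ETS factor of stem cell maintenance, had 37.7 and 26.3 CPM (0.50, interval 0.30 to 0.74), and Socs2, a cytokine signaling inhibitor, 75.9 and 56.3 CPM (0.42, interval 0.28 to 0.58). Gfi1, a zinc finger repressor that restrains stem cell cycling, had 26.0 CPM in set 1 and 48.8 in set 2 (-0.88, interval -1.11 to -0.71). None of these reached a 2-fold difference, the list's median log2 ratio was 0.07, and 14 of the 26 were higher in set 1, against a median of -0.02 over all wide peaks.

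Surface proteins of stem cells were mostly outside the wide peaks. Besides Esam, the chemokine receptor Cxcr4 had a wide peak of 3039 bp (chr1:128590601-128593639) with 60.8 CPM in set 1 and 66.8 in set 2. No wide peak covered a start of Kit, Procr, Slamf1, Tek, Eng or Cd34. The peak at the Kit start, of 2895 bp, was just under the limit, with 22.5 CPM per kb and a count in 21.5% of cells. For the peaks at the other starts this share was 6.88% (Eng), 6.65% (Cd34), 4.13% (Tek), 3.74% (Procr) and 1.76% (Slamf1).

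Housekeeping wide peaks were close to level between the sets. Of 22 wide peaks, 16 were higher in set 2, as were 54.9% of all wide peaks, with log2 ratios between -0.40 and 0.09 and a median of -0.07. Hspa8, a constitutive chaperone, was the densest (41.2 CPM per kb) with 146 CPM in set 1 and 156 in set 2. Hsp90ab1, another chaperone, had the longest with 12020 bp (chr17:45562860-45574879), shared with Slc35b2, and 159 CPM in set 1 and 210 in set 2. Its log2 ratio of -0.40 (interval -0.49 to -0.31) was the lowest of the list. Actb, the cytoskeletal actin, spanned 9201 bp with a low density of 11.9 and had 108 CPM in set 1 and 112 in set 2.

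Gapdh, a glycolytic enzyme, and Ywhaz, a 14-3-3 adaptor, were nearly level, with 106 CPM in set 1 and 111 in set 2, and 155 and 160 CPM. Eef2, the translation elongation factor, was the thinnest of the list at 10.1 CPM per kb. No housekeeping wide peak was 2-fold apart between the sets.

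Immediate early wide peaks were the longest and most widely counted of the lists. The 19 wide peaks had a median width of 8524 bp, a median density of 19.9 and a count in a median of 43.4% of cells, with a range of 17.0 to 65.1%. Zfp36, which speeds the decay of cytokine mRNAs, spanned 12577 bp (chr7:28374724-28387300) with 290 CPM in set 1 and 308 in set 2. Jun, an AP-1 subunit whose promoter is shown above, spanned 8654 bp with 281 CPM in set 1 and 269 in set 2, the highest density of the list (31.9). The AP-1 subunits Fosb, Jund, Junb and Fos had 273, 280, 182 and 172 CPM in set 1 and 247, 260, 202 and 166 in set 2.

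The immediate early wide peaks did not lean clearly to a set. Their median log2 ratio was 0.05 with 11 of 19 higher in set 1. Nr4a2, an orphan nuclear receptor, had 94.1 CPM in set 1 and 66.1 in set 2 (0.50, interval 0.37 to 0.65), and Egr1, a zinc finger factor, 224 and 182 CPM (0.30, interval 0.21 to 0.38). Btg2, an antiproliferative gene, went the other way with 47.1 and 60.2 CPM (-0.35, interval -0.52 to -0.19). At equal depth a median cell had 0.286% of its counts in these 19 peaks in both sets, against 0.184% in the 26 stem cell identity peaks, and this share ran from 0.0408 to 0.878% over cells.

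Lineage genes with a wide peak were few. Lef1 and Gata3, factors of T cell development, had a count in 8.48 and 26.0% of cells, and Cebpa and Cebpe, factors of granulocyte development, in 15 and 5.27% of cells. Gp1bb and Gp5, parts of the platelet receptor for von Willebrand factor, were at 19.6 and 10.0%, where the Gp1bb wide peak also held the start of Sept5. Prtn3 of the myeloid list had a wide peak of 5855 bp with a count in 12.6% of cells. Runx2 of the endothelial and stromal list had a wide peak of 5063 bp with a count in 16.0% of cells. The log2 ratios of all these wide peaks lay between -0.33 and 0.25.

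Of the 6 wide peaks at genes of chromatin and the DNA damage response, 5 had a log2 ratio above 0, as had 45.1% of all wide peaks. The interval of Kmt2a, -0.06 to 0.19, spanned 0. Trp53, the p53 tumor suppressor, had 93.9 CPM in set 1 and 74.3 in set 2 (log2 ratio 0.33), and Dnmt3a, a DNA methyltransferase, 52.0 and 41.5 CPM (0.32). Cdkn1a, a cell cycle inhibitor and p53 target, had 59.2 and 49.6 CPM (0.25). Kmt2a and Kmt2d, histone methyltransferases, were at 0.07 and 0.19, and Kdm6a, a histone demethylase on the X chromosome, at -0.03.

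Hox wide peaks lay in the Hoxa and Hoxb clusters. Hoxb6 had 39.9 CPM in set 1 and 26.7 in set 2 (log2 ratio 0.56, interval 0.36 to 0.80), and Hoxb9 26.7 and 18.5 CPM (0.51, interval 0.27 to 0.80). Hoxa7 was at 0.23, Hoxa3 at 0.06 and Hoxa10 at -0.06. Histone genes of the list shared wide peaks, since 19 genes started in 6 of them. A wide peak of 6179 bp on chromosome 13 held starts of 5 histone genes (Hist1h2ad, Hist1h2ae, Hist1h2bf, Hist1h2bg and Hist1h3d). It had 70.3 CPM in set 1 and 90.7 in set 2.

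Of the 18 wide peaks with 3 or more gene starts, counted by gene identifier, 5 were at histone genes. The longest of the others, 23488 bp with 6 predicted genes, lay in a repeat-rich stretch of chromosome 9 described below. The next held Cep95, Polg2 and the RNA helicase Ddx5 in 14644 bp (chr11:106775631-106790274), with 302 CPM in set 1 and 279 in set 2. Ddit3, a stress-response factor listed under a pair of identifiers, shared 7640 bp with Mbd6.

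The 486 wide peaks without a protein-coding start differed from the other 1717. They were thinner (median 10.2 against 14.6 CPM per kb), had a count in fewer cells (13.0 against 19.7%), and had less CpG (observed over expected 0.257 against 0.563). A protein-coding gene body overlapped 275 of them, 211 overlapped none, and 90 lay over 50 kb from a start. Their log2 set ratios spread more, with 5th and 95th percentiles of -0.73 and 0.55, against -0.45 and 0.36 in wide peaks with a start. A start of a non-coding gene lay in 90 of them.

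The non-coding starts included some of the best counted wide peaks. Neat1, the scaffold RNA of paraspeckles, lay in 16712 bp (chr19:5836484-5853195) with 282 CPM in set 1 and 254 in set 2 and a count in 60.9% of cells. Malat1, an abundant nuclear RNA, lay in 12159 bp (chr19:5792812-5804970) with 193 and 189 CPM. Lncpint had 167 and 161 CPM in 12542 bp. The microRNA host gene Mir22hg lay in a wide peak with 180 and 164 CPM, and the microRNA gene Mir21a in 1 with 159 and 171 CPM. The log2 ratios of these wide peaks with non-coding starts lay between -0.10 and 0.15.

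The densest wide peak of all was the 6240 bp on chromosome 17 with annotated ribosomal RNA sequence (chr17:39842796-39849035, with Gm26917, CT010467.1, Gm42418 and AY036118). It held 50614 counts, 355 CPM per kb, and had a count in 88.4% of cells. Its level was 2543 CPM in set 1 and 1775 in set 2 (log2 ratio 0.52, interval 0.49 to 0.55), and 98 cells held 50% of its counts, against 121 cells for the median wide peak. Ribosomal DNA exists in many copies of which the assembly holds a fragment, so reads of other copies can be placed here. The next densest were at promoters of Ppp2r3d (73.5), Cep57 and Fam76b (64.0), Ing1 (61.0), Gsk3b (60.0) and Ppm1b (59.0), which were open in 50.9 to 67.2% of cells with log2 ratios between -0.18 and 0.14.

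Several of the widest peaks were thin or repeat-rich. The widest, at Hjurp and Mroh2a (44895 bp, chr1:88225462-88270356), had 3.78 CPM per kb, 136 CPM in set 1 and 214 in set 2 (log2 ratio -0.64). It belonged to a run of 5 wide peaks over 99.2 kb from Ugt1a1 to Trpm8, of which the 20967 bp around Hjurp, a centromere chaperone of histone CENP-A, had 14.9 CPM per kb and a count in 65.4% of cells. The second widest, 23488 bp on chromosome 9 with 6 predicted genes, was 95.4% marked repeat, and 44 cells held 50% of its counts. Sfi1 (16139 bp, 45.6% marked repeat) was alike, with 48 cells.

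Other wide peaks of the top 10 were at named single genes. Per1, a circadian clock repressor, spanned 17696 bp with 297 CPM in set 1 and 291 in set 2 and a count in 63.6% of cells. Sik1, a salt-inducible kinase, spanned 17303 bp with 141 and 124 CPM, and Adgrg3, an adhesion G protein-coupled receptor, 18673 bp with 191 and 210 CPM. Their log2 ratios were 0.03, 0.18 and -0.13.

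Counts of most wide peaks were spread over many cells, but 18 wide peaks had 50% of their counts in 15 cells or fewer, a limit set after the values had been seen. Of these, 15 had no protein-coding start, 7 lay on chromosome 4 among zinc finger genes (Zfp978, Zfp981, Zfp982 and Zfp988) and near its proximal end, and 17 were higher in set 2. Together 14 cells held 50% of their 3476 counts, 8 of set 2 and 6 of set 1. These 14 cells had a median of 52546 counts in all peaks, and 8 of them had over 3 times the median of all cells. The smallest, near Prl2c2, had 39 counts.

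**Figure D4:**
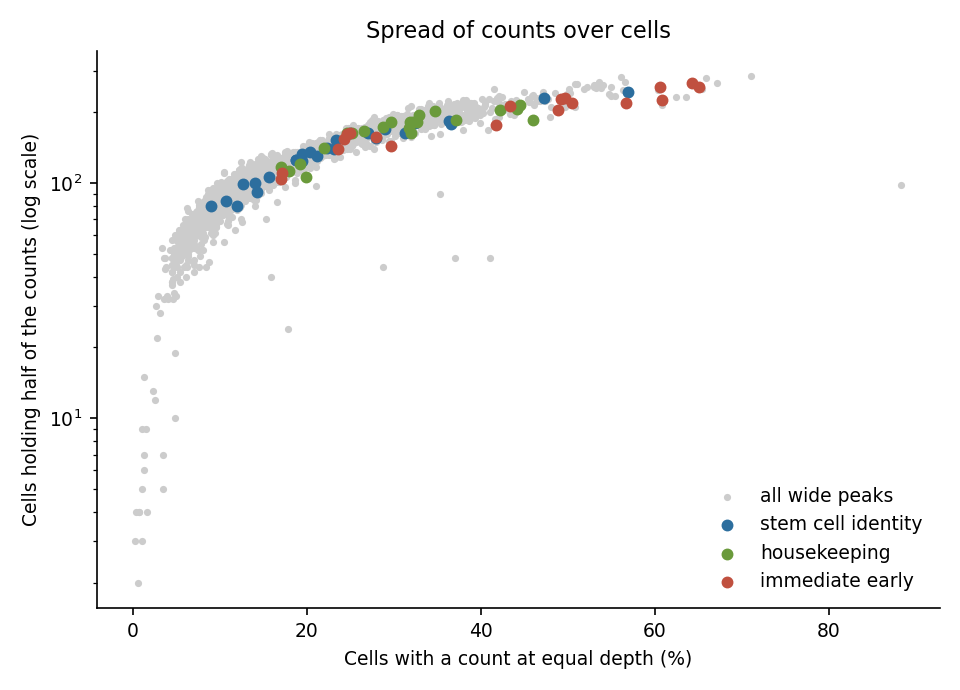
Share of cells with a count at equal depth (x axis, %) against the number of cells holding 50% of the counts (y axis, log scale) for all 2203 wide peaks, with 3 gene lists in color. The list members follow the main band, whereas some wide peaks lie below it, among them the ribosomal RNA peak at 88.4% of cells and 98 cells.

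Few wide peaks differed 2-fold between the sets. With a pseudocount of 1 CPM, 6 of 2203 were 2-fold or more higher in set 1, against 5.20% of 79625 peaks with at least 20 counts, and 8 were 2-fold or more higher in set 2, against 6.85% of those peaks. Such calls were also few in peaks of 2000 to 2999 bp, with 33 of 4690 for set 1 and 50 for set 2. Among peaks with at least 500 counts the shares were 5 of 2023 wide peaks against 0.961% for set 1 and 5 of 2023 against 0.504% for set 2. The log2 ratio lay within 0.5 of 0 in 2009 wide peaks (91.2%). Summed over all wide peaks, set 1 had 14.2% of its counts there and set 2 had 14.4%, a log2 ratio of -0.02 (interval -0.025 to -0.019) that turned to 0.01 without cells of over 3 times the median count.

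The wide peaks higher in set 1 were led by Peg3 and Usp29, neighboring genes that are imprinted and expressed from the paternal copy. This wide peak (chr7:6727265-6730705, 3441 bp) had 83.6 CPM in set 1 and 27.7 in set 2, a log2 ratio of 1.56 (interval 1.40 to 1.79). A count was present in 25.8% of set 1 cells and 9.11% of set 2 cells at equal depth. The ratio was 1.52 without cells of over 3 times the median count and 1.27 with each cell counted once, and this wide peak is the one with the repeated AAGATGGC copies shown above.

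Mmp16, a membrane matrix metalloprotease, had 33.6 CPM in set 1 and 13.3 in set 2 (1.27, interval 1.05 to 1.63). A wide peak 2205 bp from Gadd45g, a growth arrest gene, had 38.3 and 16.5 CPM (1.17), and a wide peak 10339 bp from Nkx2-3, a homeobox gene, 70.3 and 30.8 CPM (1.17). The remaining ones were a stretch within Clk1 and Bzw1, with 26.0 and 11.6 CPM (1.1), and Tgm2, a transglutaminase, with 68.7 and 33.5 CPM (1.01). Without deep cells Tgm2 was at 0.96 and the other 5 were at or above 1.15. With each cell counted once, Mmp16 was at 1.13 and the wide peak near Gadd45g at 1.12, while those near Nkx2-3 (0.90) and Clk1 (0.88) and at Tgm2 (0.70) were under 2-fold.

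Of the 8 wide peaks higher in set 2, 6 had no protein-coding start. A wide peak 28136 bp from Bcl2l14, a member of the BCL2 family (chr6:134364367-134368182), had 26.7 CPM in set 1 and 64.1 in set 2 (log2 ratio -1.23, interval -1.45 to -1.07). A wide peak 38686 bp from Fam102a (chr2:32493135-32496647) had 25.7 and 58.5 CPM (-1.16), and a wide peak within Fam117a, 17156 bp from a start (chr11:95354174-95358589), 28.4 and 59.8 CPM (-1.05). These 3 were spread over 80 to 91 cells for 50% of their counts, and had log2 ratios of -1.18, -1.03 and -0.96 without cells of over 3 times the median count. With each cell counted once the ratios were -0.89, -0.87 and -0.95, all under 2-fold.

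Other wide peaks higher in set 2 rested on few cells. Ugt1a1, a bilirubin-conjugating enzyme of the liver, had 14.6 CPM in set 1 and 36.4 in set 2 (log2 ratio -1.26), with 7 cells holding 50% of its counts. Its ratio was -0.22 without cells of over 3 times the median count and -0.00226 with each cell counted once. The wide peak that follows Jund on chromosome 8, within Iqcn and nearest Gm3336 (chr8:70706921-70715530), had 10.1 and 23.8 CPM (-1.16) with 5 cells holding 50% of its counts, and its ratio turned to 0.86 without the deep cells and to 0.50 with each cell counted once.

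The last ones were a repeat-rich stretch of chromosome Y (53.1% marked repeat), with 28.0 CPM in set 1 and 65.1 in set 2 (-1.19, and -0.74 without the deep cells), a stretch within Col11a2 with 10.3 and 22.8 CPM (-1.08, and -0.86), and Cpne7, a calcium-dependent membrane binding protein, with 9.65 and 20.9 CPM (-1.04, and -0.78). With each cell counted once their ratios were -0.60, -0.67 and -0.74, all under 2-fold. The study's methods describe its mice as female, so counts placed on this chromosome Y stretch cannot be read as accessibility of that locus.

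**Figure D5:**
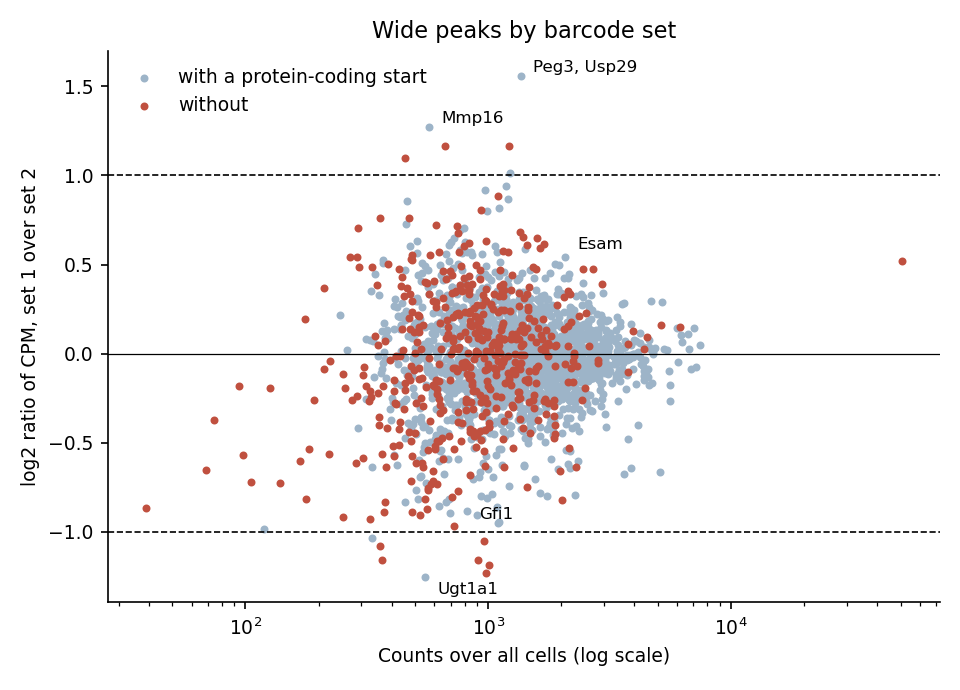
Log2 ratio of CPM in barcode set 1 over set 2 (y axis, pseudocount of 1 CPM) against counts over all cells (x axis, log scale) for 2203 wide peaks, with and without a protein-coding start; dashed lines mark a 2-fold difference. Peg3 and Usp29 lie highest at 1.56 and Ugt1a1 lowest at -1.26.

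The width limit cut through a continuum. The 2 shortest wide peaks, both of 3000 bp, were at Traf4, an adaptor of TNF receptor family signaling, and Fbxl14, a ubiquitin ligase subunit, with 13.9 and 19.0 CPM per kb and a count in 14.4 and 18.6% of cells. The 2 peaks just short of the limit were of 2999 bp at Rps2, a ribosomal protein gene, and of 2998 bp within St6galnac3, a sialyltransferase gene, with 18.6 and 9.06 CPM per kb. Their shares of cells were 19.1 and 9.47%.

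The share of a cell's counts in wide peaks ranged from 10.7 to 25.4% at equal depth. The median was 14.0% in both sets, and the 5th and 95th percentiles were 12.4 and 15.9% in set 1 and 12.3 and 17.0% in set 2.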

How the data were processed

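Single-cell ATAC-Seq (10x Chromium) was performed by the authors on CLCA3A1high and CLCA3A1low old LT-HSCs. Per the submitters' processing notes, reads were processed with Cell Ranger ATAC 1.2.0 and mm10 (GRCm38); whether depth was equalized between libraries is not given in the sources used here. The deposited counts per peak and barcode were raw whole numbers. A second deposited table was not used, since its rows carry no positions. No cell was removed for sums and no doublet caller was run.

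Peaks of at least 3000 bp were taken, and protein-coding starts came from GENCODE M21. CPM used set totals. Log2 ratios used a pseudocount of 1 CPM and peaks with at least 20 counts, and calls needed 2-fold. Shares of cells were computed after thinning each cell without replacement to 4899 counts, which left out 69 cells of set 1 and 76 of set 2. Intervals were 95% exact Clopper-Pearson or exact conditional binomial intervals. Scripts were run in Python 3.11.15 with numpy 2.4.6 and scipy 1.17.1 and tested on simulated data. Groups had 1 sample each, so no test was made.

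Named wide peaks were the 10 widest, the 10 densest, the 10 highest and 10 lowest in set ratio, the 10 counted in fewest cells, the 10 without a start that had most counts, those at starts of listed genes, those with 3 or more starts and those next to the limit. The wide peaks and lists were chosen with earlier results of these data known. Alternatives covered the width limit, counting, filters, scaling, start definition and thinning. Values of some listed genes are not reported here.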

Additional observations from a re-analysis of the deposited data

How the results depend on the processing

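Of 53 alternative values, 26 stayed within the counting interval of the value above or, for counts of peaks or genes, within 1.5 times of it. With a width limit of 2500 bp there were 3807 wide peaks with 21.8% of counts, 14 of them 2-fold higher in set 1 and 23 in set 2, and with 4000 bp 835 with 6.91% of counts, 2 and 4. At 4000 bp 83.0% held a protein-coding start, the median share of cells was 22.8%, the log2 ratio of summed CPM -0.02 (-0.0162) and 11 housekeeping genes had a start in a wide peak. With each peak counted once per cell the share of counts was 10.9%, the median density 11.6, the number higher in set 2 fell from 8 to 1 and the log2 ratio of sums was -0.00494. None of the 8 described above was 2-fold higher in set 2 in that counting, so the 1 was another wide peak. Without cells of over 3 times the median count the share of counts was 14.1% and the log2 ratio of sums reversed to 0.00523. A pseudocount of 5 CPM left 4 wide peaks higher in set 2, and the median-of-ratios size factor, which shifts all log2 ratios by -0.02, gave -0.0461 for the sums. With the outermost gene start 66.5% of wide peaks held a start, and with genes of every biotype 83.9%. The share of cells was 29.3% without thinning and 29.1% at 2 times the depth. Of alternatives chosen after seeing the data, at least 500 counts left 5 wide peaks higher in set 2, and without the ribosomal RNA peak the share of counts was 14.1% and the log2 ratio of sums -0.0302. The causes were not tested where the setting's own construction does not show them. No paired analysis was possible because each group had 1 sample and no label pairs a barcode set with a sample. Depth limits the shares of cells most, and single wide peaks with under 100 counts carry wide intervals.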

Other observations

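Wide peaks were scarcer on the X chromosome than other peaks, with 22 of 2203 (0.999%) there against 2.04% of all peaks. They lay on 21 chromosomes, and 184 pairs of neighboring wide peaks were under 10000 bp apart, as around Jund and in the Hoxa cluster.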
